A study of Mus musculus with 6 samples.

Results

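The unfolded protein response genes and endoplasmic reticulum (ER) chaperones were followed in mouse colon tumour cells, as 32 genes out of 18193 that had at least 1 probe set named to a single gene on the array. The genes were taken from a list of names, and each was read on its brightest probe set, by mean log2 intensity over the 6 arrays. All 32 lay above the intensity filter (an intensity of 11.3) and entered the test of 12795 genes. Both groups were iKAP primary cultured cells of 1 line, #3346, that stably carried a lentiviral construct: 3 arrays were labelled IRF2 ORF and 3 were labelled GFP control. iKAP names a mouse colorectal cancer model whose engineered alleles include Apc and Trp53, which both groups share, and the labels' protocols give growth in DMEM with a tetracycline-free additive. The labels call the samples triplicates without saying that the cultures were separate, so the p-values rest on the spread between 3 arrays a group, which may be only technical.

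The secretory pathway folds proteins in the ER, and cells read the load of unfolded protein there through membrane sensors. IRE1 (gene Ern1) splices the mRNA of the transcription factor XBP1, ATF6 is itself cut to release a transcription factor, and PERK (gene Eif2ak3) phosphorylates the initiation factor eIF2, which slows translation in general while the mRNA of ATF4 is translated more. ATF6 and XBP1 turn on chaperones, disulfide isomerases and the machinery of ER-associated degradation (ERAD). ATF4 turns on CHOP (gene Ddit3) and genes for amino acid supply and feedback. Secretory epithelia such as that of the colon use these genes to make mucins, receptors and adhesion proteins.

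The gene that the labels name was read first, on the only probe set named to it alone. Irf2 lay between 60.5 and 65.4 intensity units in the GFP control group and between 35.2 and 37.0 in the group labelled IRF2, a difference of -0.79 in log2 (SE 0.06, limma adjusted p = 1.73e-07). The label names an IRF2 ORF, yet this probe set read lower, and whether it reads the construct's transcript was not known. Which part of the transcript the probe set reads was not known here, so "labelled IRF2" is used for the group throughout. Among the markers of cell types, 9 epithelial genes were tested, of which 2 rose and 3 fell (median -0.09 in log2). The keratin genes Krt8 (0.50, SE 0.02) and Krt18 (0.08, SE 0.02, not called without the intensity trend) rose, and with Krt19 they read at least 3513 on every array. The adhesion genes Epcam (-0.81, SE 0.11, and -0.43 in the mean of probe sets), Cdh1 (-0.75, SE 0.04) and Cdh17 (-0.57, SE 0.03) fell, and the markers of differentiated enterocytes Krt20 and Vil1 stayed under the intensity filter. Also under it were the leukocyte marker Ptprc (4.30 to 5.42), the endothelial marker Pecam1 (4.77 to 5.93) and the plasma cell marker Jchain (3.91 to 4.77), where the bacterial tryptophan probe sets, which have no mouse target, also lay (3.69 to 6.52). At or under the filter were 3 of 8 immune cell markers, 3 of 5 plasma cell markers and 3 of 5 endothelial markers. The others in these lists passed it. They include the endothelial marker Kdr (15.8 to 17.8) and the plasma cell marker Mzb1 (14.6 to 16.7), neither of them called. The immune cell markers Cd68 (71.0 to 84.7) and Cd3e (19.1 to 24.9) were not called either. Cd14 (112 to 145 over the 6 arrays) rose by 0.18 (SE 0.06), a call lost under 6 of the 13 alternatives. Prdm1 (68.8 to 93.2) fell by 0.35 (SE 0.05). Among fibroblast markers Pdgfra rose by 0.70 (SE 0.10, and 0.36 in the mean of probe sets) and Pdgfrb fell by 0.40 (SE 0.08, not called in the mean of probe sets). The summed intensity of 11 epithelial markers, most of it from the 3 keratin genes, was 14559 to 14702 in the GFP control group and 16049 to 16186 in the group labelled IRF2. That of 8 immune cell markers was 247 to 284 and 274 to 288, that of 5 endothelial markers 43.9 to 45.7 and 45.1 to 50.1, that of 7 fibroblast markers 137 to 149 and 144 to 154, and that of 5 plasma cell markers 125 to 129 and 103 to 109.6. Their part in the results was not tested. As a control for RNA integrity, the transferrin receptor probe set at the 3' end over that at the 5' end was 3.61 to 3.78 and 3.81 to 4.47, and that ratio for beta-actin was 0.996 to 1.02 over all 6 arrays. The 5' probe set of 18S ribosomal RNA also lay apart between groups, at 1798 to 2034 and 2099 to 2254. Its 3' probe set (446 to 529 and 500 to 591) and its middle one (623 to 801 and 722 to 895) overlapped between groups. The part of these measures in the results was not tested either.

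Small changes in both directions were found among the 32 genes. At an adjusted p under 0.05, 5 members rose on the arrays labelled IRF2 and 8 fell, so 40.6% were called, beside 36.3% of all genes tested (16.5% higher and 19.8% lower). The members' share lies near the background of the array. The change of the largest size was 0.29 on the log2 scale, for the disulfide isomerase gene Pdia4, and 28.8% of all called genes changed by more than that. The median size of the log2 fold change was 0.08 for the members and 0.09 for all genes tested. The groups were fully apart, with no overlap of their 3 arrays, in 17 of the 32 members (53.1%), beside 46.2% of the genes tested. Under the 13 alternative settings, 3 of the 13 called members kept their call in every one. These were Ppp1r15a, Manf and Herpud1, all lower on the arrays labelled IRF2. Ppp1r15a and Manf have 1 probe set each, so the mean of probe sets could not alter their fold change. Ern1, Ddit3, Dnajc3, Pdia4 and Pdia6 lost their call in that setting alone.

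**Figure D1:**
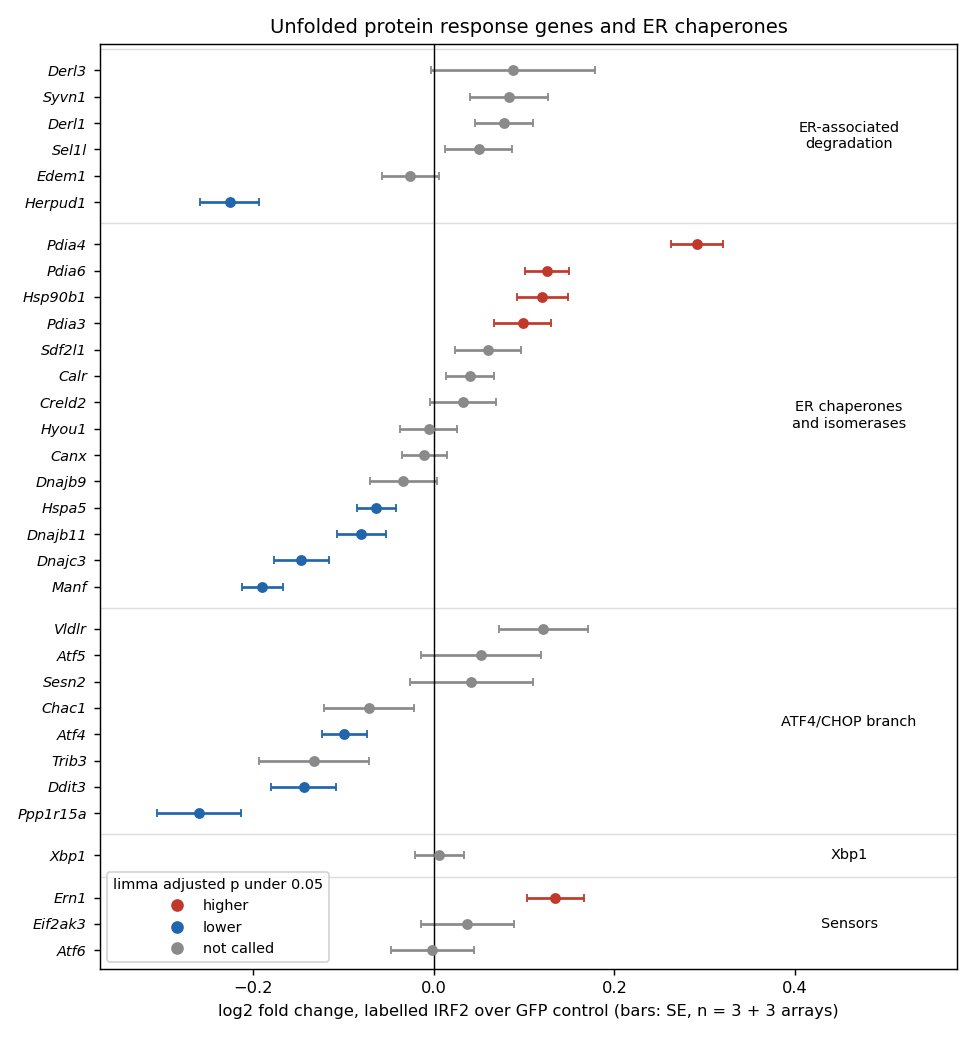
The log2 fold change of each of the 32 genes (labelled IRF2 over GFP control, horizontal axis), grouped by role, with the standard error as a bar and the colour giving the call at a limma adjusted p under 0.05. The 5 genes called higher are Ern1, Hsp90b1, Pdia3, Pdia4 and Pdia6, and all points lie between -0.26 and 0.29.

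Of the 3 sensors, Ern1 alone passed the test. Ern1, the kinase and nuclease that splices Xbp1 mRNA, read 317, 324 and 333 on the GFP control arrays and 360.4, 356 and 353 on the arrays labelled IRF2. The groups did not overlap, and the rise was 0.13 on the log2 scale (SE 0.03, limma adjusted p = 0.00326). Its other 2 probe sets above the filter gave 0.06 and 0.01. In the mean of all 5 probe sets, which takes in 2 dim ones under the filter, the difference was -0.01 (adjusted p = 0.888).

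The other sensors and Xbp1 overlapped between groups. Eif2ak3, which encodes PERK, read 137 to 153 in the controls and 140.0 to 155 in the group labelled IRF2 (log2 difference 0.04, SE 0.05, adjusted p = 0.636). Atf6 read 110.3 to 113 and 109 to 114, a difference of -0.0017 (SE 0.05, adjusted p = 0.983) whose sign turned under quantile normalization. Xbp1, the transcription factor gene downstream of IRE1, read 821 to 866 and 824 to 860.1 (0.01, SE 0.03, adjusted p = 0.896), and its other 3 probe sets differed by -0.06 to -0.04. The sources used here do not assign these probe sets to the spliced or the unspliced form of Xbp1, so splicing was not measured.

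In the ATF4/CHOP branch, 3 of 8 genes fell and none rose by limma's adjusted p. At an unadjusted p under 0.05, 4 were lower and 1, Vldlr, was higher. The share called, 37.5%, lies at the 36.3% of all genes tested. The median log2 fold change over the 8 was -0.09, beside -0.00070 over all genes tested. Ppp1r15a, which encodes the GADD34 subunit that directs a phosphatase onto eIF2 and so restores translation, had the largest fall. It read 204, 196 and 222 on the GFP control arrays and 169, 174 and 177 on the arrays labelled IRF2. All 3 arrays labelled IRF2 lay below all 3 controls, and the level was 16.5% lower (log2 fold change -0.26, SE 0.05, limma adjusted p = 4.11e-04).

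Ddit3, the gene of the pro-apoptotic transcription factor CHOP, read 253, 244 and 247 on the GFP control arrays and 218, 228 and 228 on the arrays labelled IRF2. Again the groups did not overlap (log2 fold change -0.14, SE 0.04, limma adjusted p = 0.00498). Its other probe set, dim at 13.3 to 16.2 units over the 6 arrays, gave -0.0054, and in the mean of both the call was lost (-0.07, adjusted p = 0.336). Atf4, whose protein is set mainly by translation, read 1869, 1762 and 1837 against 1725, 1667 and 1711, with no overlap. This fall of 6.64% (log2 fold change -0.10, SE 0.02, adjusted p = 0.00506) was the smallest of the 3 called in the branch. The other 2 probe sets of Atf4 gave -0.17 and -0.47, so the mean of its probe sets came to -0.24, while the call was lost without the intensity trend in the variance (adjusted p = 0.0791).

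The other 5 genes of the branch did not pass. Trib3, a pseudokinase gene induced by ATF4 and CHOP, read 68.0 to 74.7 in the controls and 61.5 to 67.0 in the group labelled IRF2. Its groups were apart, with a difference of -0.13 (SE 0.06, adjusted p = 0.108), and its other probe set gave -0.10. Chac1, whose product degrades glutathione, differed by -0.07 (SE 0.05, adjusted p = 0.303). Its groups nearly touched, at 116.8 for the lowest control and 116.7 for the highest array labelled IRF2. The transcription factor gene Atf5 (72.5 to 86.7 against 78.9 to 86.4) and Sesn2, a leucine sensor gene (38.0 to 38.8 against 37.3 to 40.7), overlapped between groups and differed by 0.05 and 0.04.

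Vldlr, a lipoprotein receptor gene that PERK and ATF4 are known to induce, read 97.8, 99.7 and 106 on the GFP control arrays and 110.3, 110.0 and 109.8 on the arrays labelled IRF2. It lay above all controls on all 3 arrays labelled IRF2, opposite in sign to Ppp1r15a, Ddit3 and Atf4, but did not pass (0.12, SE 0.05, adjusted p = 0.0672). Its other 2 probe sets above the filter gave 0.18 and 0.24. It passed under the stricter filter, under quantile normalization and without the replicate 3 GFP control array (adjusted p from 0.039 to 0.262 over the alternatives).

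**Figure D2:**
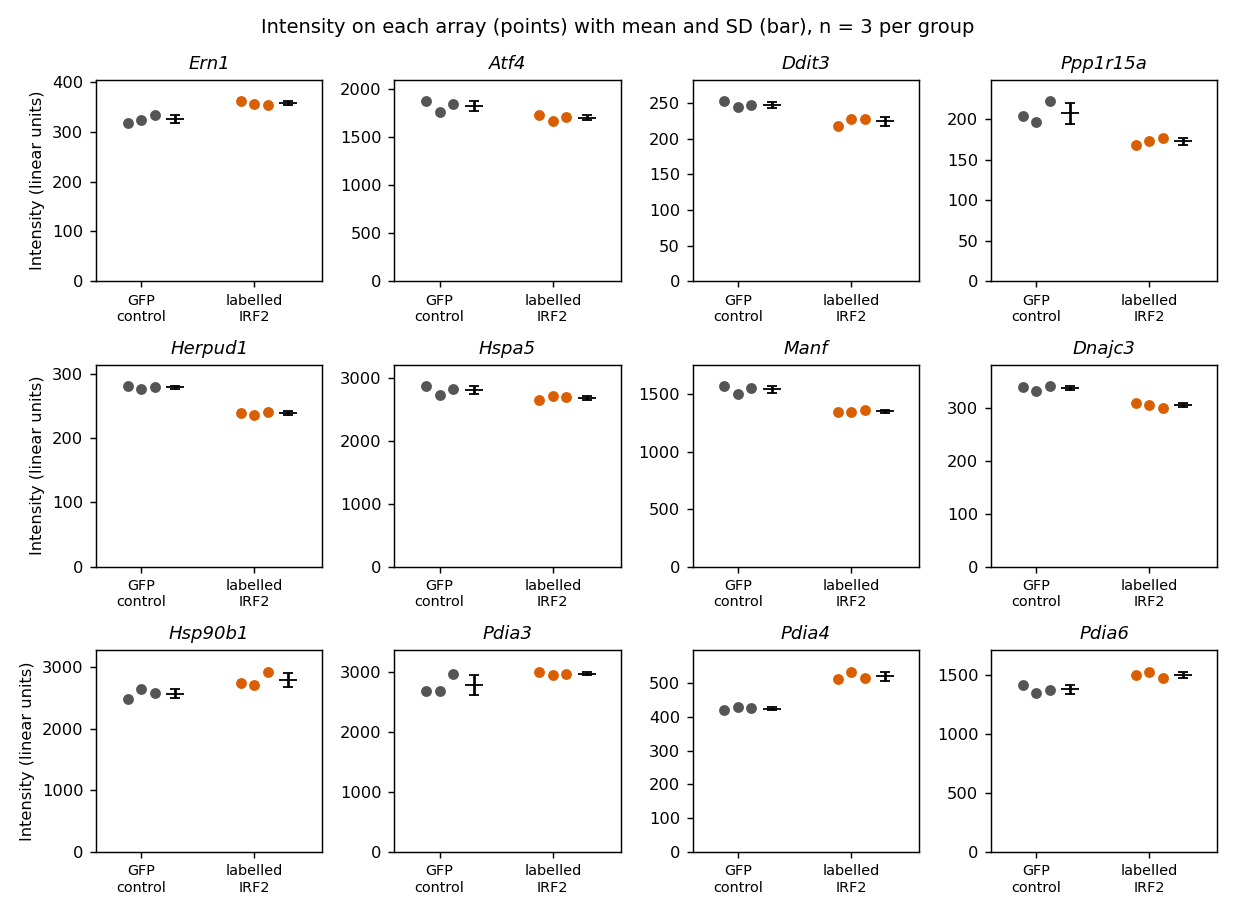
Linear intensity (vertical axes, from 0) of 12 members on each of the 3 GFP control arrays and the 3 arrays labelled IRF2, with the mean and SD of each group as a black bar beside its points. For these genes other than Pdia3, whose highest control array reached 2969, the points of the 2 groups do not overlap, and the shifts are small beside the levels.

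Among the ER chaperones and isomerases, genes were called in both directions. Of 14 genes, 4 rose and 4 fell, around a median log2 difference of 0.013 (-0.013 in the mean of probe sets). This is 57.1% called, beside 36.3% of all genes tested. The share was lower under some alternatives. Without the intensity trend Hspa5, Hsp90b1, Dnajb11 and Pdia3 lost their calls, and in the mean of probe sets Hspa5, Dnajc3, Pdia4 and Pdia6 did. No other chaperone gained one in these settings. Over all genes 1785 were called higher and 2015 lower without the trend. In the mean of probe sets these counts were 1811 and 2148, beside 2111 and 2531 in the main fit. The 3 disulfide isomerases among the members rose, although each call was lost under at least 1 alternative. Not all isomerases of the ER did so: outside the members P4hb, which encodes the archetypal disulfide isomerase PDI, read 4199, 4048 and 4107 on the controls and 3774, 3709 and 3657 in the other group and fell by 0.15 (SE 0.02), and Pdia5 (-0.05, SE 0.05) and Erp44 (-0.04, SE 0.03) did not pass. The disulfide isomerase gene Txndc5, also outside the members, rose by 0.22 (SE 0.02). Pdia4, also known as ERp72, makes and rearranges disulfide bonds. It read 419.8, 429.6 and 426 on the GFP control arrays and 512, 535 and 514 on the arrays labelled IRF2. Every array labelled IRF2 was above every control, and the rise was 22.4% (log2 fold change 0.29, SE 0.03, limma adjusted p = 1.37e-06). Its other probe set read 10.2 and 9.71, under the filter, and the mean of both gave 0.11 (adjusted p = 0.124).

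Pdia6, an isomerase that also acts on the sensors, read 1415, 1342 and 1369 against 1499, 1526 and 1475 (log2 fold change 0.13, SE 0.02, limma adjusted p = 8.29e-04). The groups were apart. Its dim second probe set, at 13.6 and 12.8 units, gave -0.08, and the mean of both 0.02 (adjusted p = 0.829). Pdia3, which folds glycoproteins with calnexin and calreticulin and also serves in the loading of MHC class I, read 2679, 2679 and 2969 on the GFP control arrays and 3002, 2950.0 and 2954 on the arrays labelled IRF2. The replicate 3 control array thus reached the level of the arrays labelled IRF2. The rise of 0.10 (SE 0.03, adjusted p = 0.0237) lost its call without the replicate 1 or 2 GFP control array, without the replicate 1 or 2 array labelled IRF2 and without the intensity trend. Its adjusted p ran from 2.69e-04 to 0.17 over the alternatives.

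Among the chaperones proper, Hsp90b1 rose and Hspa5 fell. Hsp90b1 is the gene of GRP94, the HSP90 protein of the ER that folds integrins and Toll-like receptors. It read 2494, 2644 and 2590.1 on the GFP control arrays and 2748, 2722 and 2933 on the arrays labelled IRF2. The groups did not overlap (log2 fold change 0.12, SE 0.03, limma adjusted p = 0.00346), although its other bright probe set, at 2316.5 and 2356, gave 0.02. The mean of both came to 0.07, still called, and the call was lost without the intensity trend (adjusted p = 0.0756).

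Hspa5 is the gene of BiP, the HSP70 protein that holds the sensors inactive and is a standard readout of ER stress. It read 2868, 2735 and 2821 on the GFP control arrays and 2647, 2715 and 2696 on the arrays labelled IRF2. It was lower on all 3 arrays labelled IRF2, by 4.32% (log2 fold change -0.06, SE 0.02, limma adjusted p = 0.0304). Its other 2 probe sets gave -0.06 and -7.1e-04. This call was lost without the replicate 1 or 3 GFP control array, without the replicate 1 or 2 array labelled IRF2, in the mean of probe sets and without the intensity trend, with adjusted p from 0.00666 to 0.309 over the alternatives.

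Manf and 2 cochaperones of BiP fell as well. Manf, the gene of a small secreted ER protein that binds BiP and is strongly induced by ER stress, read 1569, 1506 and 1555 on the GFP control arrays and 1346, 1347 and 1366 on the arrays labelled IRF2. The gap between the groups exceeded the range within either, and the level was 12.3% lower (log2 fold change -0.19, SE 0.02, limma adjusted p = 8.61e-06). Dnajc3, whose product p58IPK helps BiP and restrains PERK, read 341, 333 and 341 against 309, 307 and 301 (-0.15, SE 0.03, adjusted p = 0.00147). Its groups were apart, but its 5 probe sets ran from -0.15 to 0.03, and the mean of them gave -0.05 with no call (adjusted p = 0.294). Dnajb11, which delivers unfolded clients to BiP, read 583 to 597 against 547 to 571, with the groups apart (-0.08, SE 0.03, adjusted p = 0.03). Its call was lost under quantile normalization, without the intensity trend, without the replicate 1 or 3 GFP control array and without the replicate 1 or 2 array labelled IRF2 (adjusted p from 0.0195 to 0.13 over the alternatives).

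The remaining 6 chaperones did not pass. The lectin chaperones encoded by Calr and Canx hold glycoproteins until they fold. Their genes overlapped between groups, with Calr at 2277 to 2339.6 against 2281 to 2481 (0.04, SE 0.03) and Canx at 2703 to 2779.8 against 2610.1 to 2815 (-0.01, SE 0.03). Leaving out the replicate 3 array of the group labelled IRF2 brought Calr past the threshold (0.07, adjusted p = 0.0444, with up to 0.9 under the other alternatives). Hyou1, the gene of the large HSP70-like protein GRP170, read 466 to 482 against 458 to 491 (-0.0056, SE 0.03, adjusted p = 0.917), and its sign turned under quantile normalization. Sdf2l1, a BiP partner gene that ER stress induces, was above all controls on all 3 arrays labelled IRF2, at 186 to 188 against 193 to 198, without passing (0.06, SE 0.04, adjusted p = 0.225). Creld2, a stress-induced secreted factor gene (0.03, SE 0.04), and the BiP cochaperone gene Dnajb9 (-0.03, SE 0.04) overlapped between groups.

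**Figure D3:**
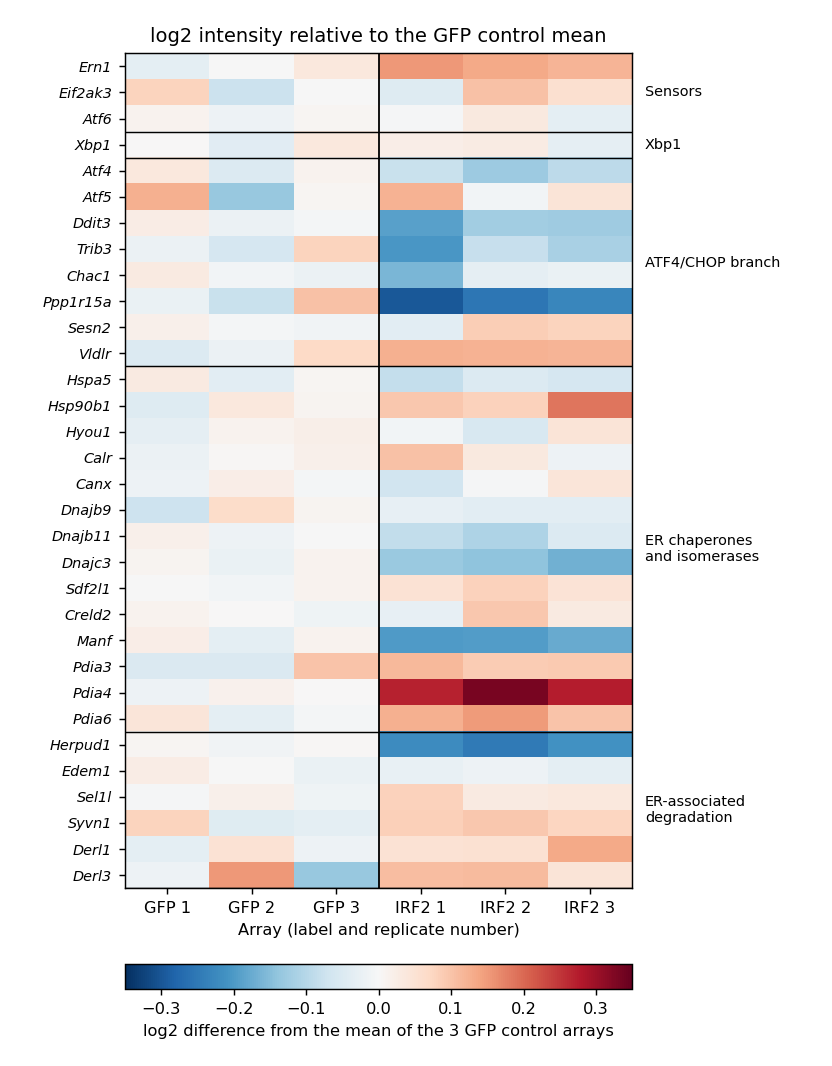
Each cell gives the log2 intensity of 1 gene (rows, grouped by role) on 1 array (columns) minus the mean of the 3 GFP control arrays, from blue (lower) to red (higher). Pdia4 is the deepest red and Ppp1r15a, Herpud1 and Manf are blue on all 3 arrays labelled IRF2, while the ATF4/CHOP branch and the chaperones each hold both colours.

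Many ER chaperone genes share a known promoter element, which makes it possible to see how genes with the same element differed. The ER stress response element, which is CCAAT and CCACG with 9 bases of any kind between them and is bound by NF-Y and ATF6, was searched on both strands of the RefSeq promoter windows of GRCm38.p6, which hold 250 bases before and 50 after each start. Windows were found for 28 of the 32 members, and not for Atf6, Derl1, Hyou1 and Manf. An exact match stood in 9 of the 28, beside 0.137% of 27025 genes. These were 7 of 12 chaperones and isomerases (Calr, Canx, Creld2, Dnajc3, Hsp90b1, Hspa5 and Pdia6) and the degradation genes Derl3 and Syvn1. Of the 9, 2 rose (Hsp90b1 and Pdia6), 2 fell (Hspa5 and Dnajc3) and 5 did not pass, with log2 fold changes from -0.15 to 0.13. The 250 bases before the start of the 4 called genes are shown because the same element stood in genes that rose and in genes that fell. None of these 4 calls held under every alternative. In the mean of probe sets Hspa5, Dnajc3 and Pdia6 lost theirs, and without the intensity trend Hspa5 and Hsp90b1 did. Capitals mark the element, in either orientation, and each line runs 5′ to 3′ on the strand of the gene.
Hspa5, fell, chr2:34771840-34772089, plus strand: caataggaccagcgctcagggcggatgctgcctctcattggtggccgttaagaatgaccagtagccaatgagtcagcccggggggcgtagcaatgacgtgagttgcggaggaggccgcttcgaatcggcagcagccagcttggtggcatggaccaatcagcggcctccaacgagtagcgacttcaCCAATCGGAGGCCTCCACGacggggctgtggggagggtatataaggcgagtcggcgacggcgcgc
Dnajc3, fell, chr14:118937682-118937931, plus strand: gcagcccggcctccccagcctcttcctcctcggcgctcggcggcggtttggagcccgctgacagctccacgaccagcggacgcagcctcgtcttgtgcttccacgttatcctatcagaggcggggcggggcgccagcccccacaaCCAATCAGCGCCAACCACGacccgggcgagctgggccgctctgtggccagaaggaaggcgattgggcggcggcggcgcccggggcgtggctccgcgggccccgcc
Hsp90b1, rose, chr10:86705445-86705694, minus strand: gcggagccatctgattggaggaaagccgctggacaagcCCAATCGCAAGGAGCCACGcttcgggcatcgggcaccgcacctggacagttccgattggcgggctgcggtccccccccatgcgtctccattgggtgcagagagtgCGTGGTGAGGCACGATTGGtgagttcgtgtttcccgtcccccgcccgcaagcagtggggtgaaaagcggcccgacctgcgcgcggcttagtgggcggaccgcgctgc
Pdia6, rose, chr12:17266339-17266588, plus strand: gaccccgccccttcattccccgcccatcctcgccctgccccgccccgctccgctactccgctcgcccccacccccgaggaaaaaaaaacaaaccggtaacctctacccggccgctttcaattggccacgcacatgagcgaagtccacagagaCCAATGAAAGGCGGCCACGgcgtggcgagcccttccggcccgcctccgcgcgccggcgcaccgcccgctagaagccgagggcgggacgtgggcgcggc

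The element begins 65 bases before the start in Hspa5, 105 in Dnajc3 and 98 in Pdia6. Hsp90b1 holds 2 matches, in opposite orientations, that begin 212 and 107 bases before it. A related element, ER stress response element II (ATTGG and CCACG with 1 base of any kind between them), stood in Herpud1 and, after the start, in Dnajb11, beside 0.0444% of all genes, and both of these genes fell. The call of Dnajb11 was lost under 6 of the 13 alternatives. The 100 bases before the start of Herpud1, with that element in capitals, are shown because it is the degradation gene that changed.
Herpud1, fell, chr8:94386329-94386428, plus strand: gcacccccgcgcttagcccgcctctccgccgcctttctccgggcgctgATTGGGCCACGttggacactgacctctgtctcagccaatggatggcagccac

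None of the 8 ATF4/CHOP branch windows held the ER stress response element, or the C/EBP-ATF response element as spelled TGATGNAAT, which stood in 1.08% of genes. The unfolded protein response element TGACGTGG was in none of the 28 windows and in 0.714% of genes. A missing match says only that these letters are not in the window.

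Of the 6 ERAD genes, Herpud1 fell and the other 5 did not pass. Herpud1, which encodes a membrane protein that assembles the degradation complex, read 280.2, 277 and 279.8 on the GFP control arrays and 239, 235 and 241 on the arrays labelled IRF2. The spread within each group was far smaller than the gap between them, and the level was 14.5% lower (log2 fold change -0.23, SE 0.03, limma adjusted p = 5.76e-05). Its other probe set gave -0.20. Sel1l, the adaptor gene of the ubiquitin ligase HRD1, read 188 to 193 against 195 to 201, with the groups apart (0.05, SE 0.04, adjusted p = 0.337). Syvn1, the gene of HRD1 itself, read 154 to 168 against 167 to 169.6 (0.08, SE 0.04, adjusted p = 0.153). It passed when its probe sets were averaged and without the replicate 1 GFP control array (adjusted p from 0.0454 to 0.36 over the alternatives).

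Derl1, a component of the exit channel, read 513 to 545 and 544 to 576 (0.08, SE 0.03, adjusted p = 0.0726). All 4 of its probe sets were on the higher side, by 0.05 to 0.11. It passed in their mean, under quantile normalization and without the replicate 2 GFP control array (adjusted p from 0.0222 to 0.273 over the alternatives). Its relative Derl3, which is prominent in secretory cells, was dim, at 14.6 to 17.7 in the controls and 16.5 to 17.2 in the group labelled IRF2 (0.09, SE 0.09, adjusted p = 0.509). Edem1, a lectin gene that sorts glycoproteins for degradation, differed by -0.03 (SE 0.03, adjusted p = 0.579), and its 2 probe sets disagreed in sign, at -0.03 and 0.09.

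The probe sets of a gene did not always agree. Of 79 probe sets of the members, 71 lay above the filter, and 21 members had more than 1 there. In 15 of these 21 all such probe sets differed in 1 direction. Among the called members with several, Ern1, Atf4, Ddit3, Hspa5, Hsp90b1, Pdia3 and Herpud1 were of 1 direction, and Dnajc3 and Pdia6 held both. Ppp1r15a, Manf and Dnajb11 had 1 probe set each, and Pdia4 had 1 above the filter, so no second probe set above the filter checks these genes.

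**Figure D4:**
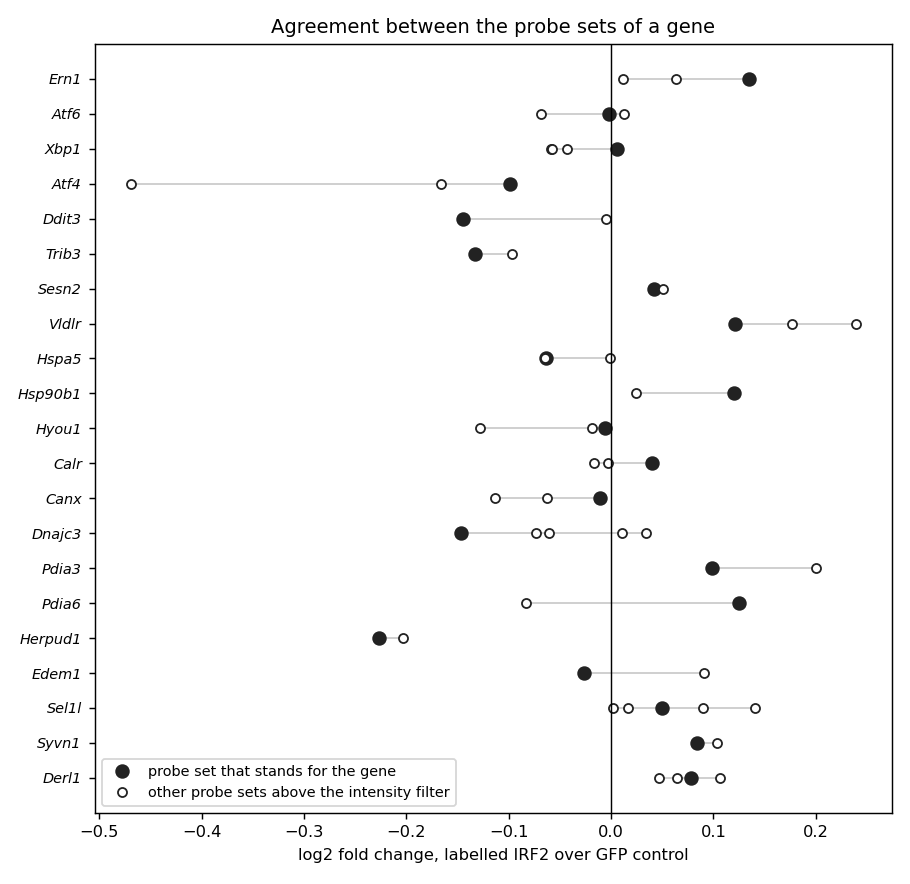
The log2 fold change (labelled IRF2 over GFP control, horizontal axis) of every probe set above the intensity filter, for the 21 genes with more than 1. Filled points stand for the gene and open points are the others. The 2 probe sets of Herpud1 and the 3 of Vldlr lie on 1 side of 0, whereas those of Pdia6 and Edem1 lie on both.

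Further genes of the same pathways were read from lists. Of 30 other measured genes listed as ATF4 targets, 13 were called lower and 5 higher, around a median of -0.09 in log2. Many of the listed genes supply amino acids, charge tRNAs or feed back on stress. The list was drawn up with earlier results known, and whether ATF4 acts on each gene in these cells was not tested. Among all genes tested 19.8% were called lower and 16.5% higher. The 4 with the smallest p were Rgs2, Nupr1, Psat1 and Cebpb. Rgs2, the gene of a G-protein brake that also binds a subunit of eIF2B, read 72.9, 78.6 and 73.9 on the GFP control arrays and 28.0, 28.2 and 27.0 on those labelled IRF2 (-1.44, SE 0.06). The serine synthesis gene Psat1 fell by 0.26 (SE 0.02) and the transcription factor gene Cebpb by 0.33 (SE 0.03), while the stress-induced chromatin protein gene Nupr1 rose by 0.30 (SE 0.03), all on the log2 scale.

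Of the 39 other measured ER folding and ERAD genes, 11 rose and 8 fell, with a median of 0.03. That is 48.7% called, beside 36.3% of all genes tested. The 2 largest rises were in prolyl isomerases of the ER. Fkbp7, which binds BiP, read 86.7, 83.7 and 93.2 in the controls and 153, 139.7 and 149 in the other group (0.74, SE 0.05). Fkbp14, which acts on collagens, read 76.5, 70.4 and 74.6 against 116, 131 and 124 (0.74, SE 0.06). Both stayed called in the mean of their probe sets, at 0.39 and 0.35. The disulfide isomerase gene Txndc5 rose by 0.22 (SE 0.02) and Wfs1, the gene of an ER membrane protein mutated in Wolfram syndrome, by 0.37 (SE 0.04). The disulfide isomerase gene P4hb was among the falls, as were the disulfide oxidase gene Ero1a, which fell by 0.23 (SE 0.03), and Ube2j1, a ubiquitin-conjugating enzyme gene of ERAD, which fell by 0.22 (SE 0.03). Ero1b, also in this list, rose by 0.33 (SE 0.10, limma adjusted p = 0.0163). The count of falls in this list came to 4 without the intensity trend and to 5 without the replicate 3 GFP control array or the replicate 1 array labelled IRF2.

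Of 7 measured genes around eIF2 phosphorylation, 3 fell and 1 rose, with a median of -0.15 (57.1% called, beside 36.3% of all genes tested). Dnajc3, a member described above, is 1 of the falls, and the median is its own value. The mean of its probe sets gave -0.05 and no call. Eif2ak1, the gene of the heme-regulated kinase of eIF2, fell by 0.33 (SE 0.06) and the adaptor gene Nck1 by 0.16 (SE 0.04). Eif2ak2, the gene of the double-stranded RNA kinase PKR, which interferon induces, rose by 0.27 (SE 0.07). Nck1 lost its call in the mean of probe sets and without the replicate 3 array of either group (highest adjusted p 0.105), and the count of falls in the list was 1 in the mean of probe sets. Of 5 membrane-bound factor and protease genes 3 were called, where 36.3% of all genes tested were. Creb3 (-0.15, SE 0.03) and Mbtps2, a protease gene whose product cuts ATF6 (-0.12, SE 0.03), fell, Creb3l2 rose by 0.21 (SE 0.05) and Atf6b differed by -0.11 (SE 0.05, adjusted p = 0.097). Without the intensity trend Mbtps2 lost its call (adjusted p = 0.0538), which left 1 fall. Atf6b passed when the replicate 1 control or the replicate 3 array of the other group was left out (adjusted p from 0.0283 to 0.28 over the alternatives).

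**Figure D5:**
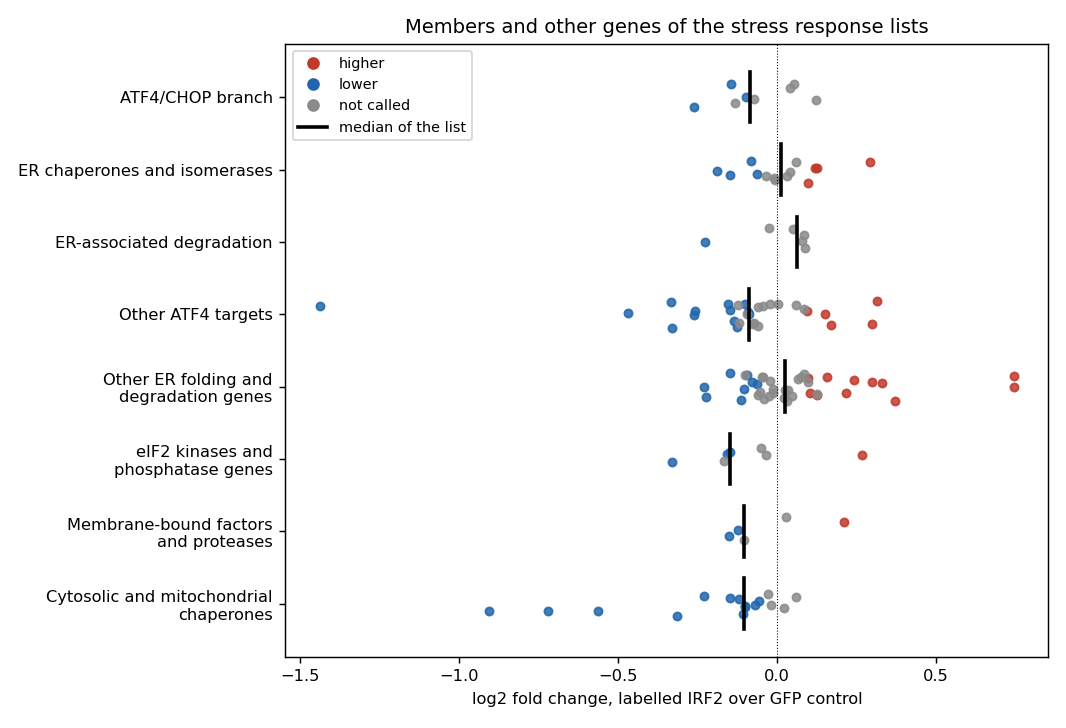
The log2 fold change (horizontal axis) of each measured gene of 3 member groups and 5 further lists, with colour for the call at a limma adjusted p under 0.05 and a black bar for the median of each list. Of the cytosolic and mitochondrial chaperones in the bottom row, 12 of 16 were called lower and none higher.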

How the data were processed

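RNA of 6 samples labelled IRF2 ORF or GFP control was read on Affymetrix 3' expression arrays. The values deposited by the authors are linear probe set intensities for 45101 probe sets. The submitters' processing notes list MAS5, whose role, version and scaling were not stated. The array medians lie between 18.2 and 18.7, so no further scaling was applied.

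Gene symbols came from the platform's annotation in GEO and were updated through RefSeq's GRCm38.p6 gene table. The 34945 probe sets with 1 gene symbol stood for 18193 genes, each by its brightest probe set by mean log2. Genes at or under the 40th percentile of non-control probe sets were left out. The model was limma's, version 3.58.1 under R 4.3.3, on log2 intensity (lmFit, eBayes with an intensity trend, group as the only term, all 6 arrays). Tests were two-sided and p-values were Benjamini-Hochberg adjusted over all 12795 genes. Every adjusted p in the text comes from this fit or from a named alternative. The fit was tested on simulated data. Precision is limited by the 3 arrays a group. The alternatives were 16 added before the log, no filter, a 60th percentile filter, the mean of a gene's probe sets, quantile normalization, no intensity trend, the replicate number as a block, and leaving out each array.

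The members and the gene lists (other ATF4 targets, eIF2 kinases, other ER folding genes, membrane-bound factors, cytosolic and mitochondrial chaperones, and markers of epithelial, immune, plasma, fibroblast and endothelial cells) were chosen with earlier results of these data known. The rule for named genes took every member, Irf2 and up to 4 genes with the smallest p from each other list. Marker genes and list genes named beyond it were chosen after their values were seen. Promoter sequences are RefSeq's, of GRCm38.p6.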

Additional observations from a re-analysis of the deposited data

How the results depend on the processing

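Across 13 alternatives the 2111 genes called higher and 2531 called lower stayed within 1.5 times those counts, as did the 5 members called higher and 8 called lower other than here: without the intensity trend 3 members were called higher and 5 lower, and in the mean of probe sets 5 were called lower. That mean also moved the chaperone median to -0.013. The replicate numbers did not pair the arrays (correlations of same-numbered deviations from the group means 0.07, -0.08 and -7.7e-04), and with the replicate number as a block 5 members were called higher and 8 lower, as without it, the block moving the counts of all genes to 2141 and 2537. Leaving out 1 array at a time, the members called higher numbered 4 to 6 and those called lower 6 to 8, the ATF4/CHOP median ran from -0.10 to -0.06, and the chaperone median from 8.3e-04 to 0.017.

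The sign turned for 8 members. In the mean of probe sets Ern1, the 1 called member among them, came to -0.012, Xbp1 to -0.038 and Edem1 to 0.032, and under quantile normalization Atf6 came to 0.0058 and Hyou1 to 0.010. Leaving out 1 array at a time, Atf6 ran from -0.020 to 0.015, Eif2ak3 from -0.0012 to 0.079, Xbp1 from -0.014 to 0.025, Atf5 from -0.013 to 0.12, Canx from -0.036 to 0.018 and Hyou1 from -0.032 to 0.019. The cause of these shifts was not tested. Outside the members, Erp44 came to 0.011 in the mean of probe sets. Derl3 was left out by the stricter filter.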

Other observations

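The folding helpers outside the ER were read beside those inside it. Of 16 measured cytosolic and mitochondrial chaperone genes, 12 fell on the arrays labelled IRF2 and none rose in the limma fit. At an unadjusted p under 0.05, 0 were higher as well. Among all genes tested 19.8% were called lower. The median log2 fold change of the list was -0.10. Its count of falls was 10 without the intensity trend and 11 in the mean of probe sets or with no filter. Leaving out 1 array at a time, it ran from 10 to 12. None rose in these settings. The 4 with the smallest p are given, while Bag3, a cochaperone gene of HSP70, did not pass (0.06, SE 0.04). Hsph1, the gene of the HSP110 exchange factor of HSP70, read 1642, 1612 and 1647 on the GFP control arrays and 858, 876 and 885 on the arrays labelled IRF2, so that the groups lay far apart (-0.90, SE 0.02, limma adjusted p = 6.85e-13). The inducible HSP70 genes Hspa1a (97.5 to 106 against 60.2 to 64.5) and Hspa1b (692 to 752 against 477 to 500.3) fell by 0.72 (SE 0.06) and 0.56 (SE 0.03), and since their sequences are nearly identical their probe sets may not tell them apart. Hspb1, the gene of the small heat shock protein HSP27, fell by 0.31 (SE 0.02), from 4954 to 5228 on the GFP control arrays to 3998 to 4132 on the arrays labelled IRF2. These 4 falls exceeded in size every change among the ER members, of which the largest was 0.29. So did the changes of 10.5% of all genes tested. Among the other ER folding genes, Fkbp7 and Fkbp14 (0.74 each), Wfs1 (0.37), Ero1b (0.33) and Fkbp11 (0.30) also exceeded it, as rises. The other called falls among the cytosolic and mitochondrial chaperones were smaller than 0.29, the largest being in Dnajb1 (-0.23, SE 0.03).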
